A study of Mus musculus with 24 samples.

Results

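The 10 genes described here follow muscle stem cells from rest to fibre: Pax7, Myf5, Myod1, Myog, Myf6, Mymk, Cdh15, Itga7, Mef2c and Des. They were chosen by name as satellite cell and myogenic differentiation genes, with earlier results of these data known. The rule itself uses no measured value. All 10 were found by Ensembl identifier among the 54532 genes of the count files. Satellite cells are the stem cells of skeletal muscle and lie between the fibre and its basal lamina. At rest they carry the transcription factor PAX7. After injury they raise MYF5 and switch on MYOD1, divide, then switch on myogenin and fuse with one another or with fibres. MYF6, MEF2C, integrin alpha 7 and desmin are also made in mature fibres, so their RNA in whole muscle is not that of satellite cells alone. For the other members too, Myod1 and Myog among them, the cells that made the RNA were not identified.

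RNA of the left gastrocnemius, a calf muscle, was sequenced in 24 samples of wild-type (WT) C57/BL6 mice, 12 female and 12 male, in 6 groups of 4. Control mice were sedentary and got 2 saline injections at pH 7.2 ± 0.1 into that muscle. Sedentary pain mice got acidic injections at pH 5.0 ± 0.1, and the muscle was made to contract by electrical stimulation for 6 min directly before the second one. Active pain mice had running wheels for 8 weeks before the same pain procedure. In every group each injection held 20 µl, the injections were 5 days apart, and the labels give a time of 24 h. No group received acid or contraction alone, and no active group without pain is among the samples, so the effects of acid, contraction and running alone cannot be told apart. The ages of the mice are not given in the sources used here. The labels number the samples of each group 1 to 4 without saying what sets these samples apart, so the p-values measure the spread between these samples.

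Depth ran from 17612139 to 34039699 counts per library. Levels are given as CPM, counts brought to a common library total with factors from the trimmed mean of M values (TMM). A gene is called changed where the edgeR quasi-likelihood test gave a Benjamini-Hochberg adjusted p under 0.05 over all genes tested, and SE marks the standard error of a log2 fold change. Summed levels of 8 fast-fibre markers, which include skeletal actin and creatine kinase, lay between 101079 and 230116 CPM in the 24 libraries, and no marker of the list was at 0 in any group. Several libraries stood apart from their groups. In female sedentary pain, 8 macrophage markers summed to 394 and 644 CPM in replicates 1 and 2 and to 3393 and 4552 CPM in replicates 3 and 4. Mitochondrial genes took 2.75% to 8.22% of counts there, against 8.59% to 11.02% in female controls. In male sedentary pain, replicate 1 had a mitochondrial share of 4.53% and a macrophage sum of 703 CPM, while the other 3 libraries had 10.4% to 11.3% and 117 to 405 CPM. Several differences below are therefore also given without single libraries of these groups.

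Myog encodes myogenin, the factor of the MYOD family that starts terminal differentiation, and it had the largest change among the members that passed a test in these data. The gene lies at chr1:134289989-134292548 on the plus strand (GRCm38.p6). Its promoter is shown together with that of Des, because both genes were called higher in female sedentary pain. Each window holds the 250 bases before the start of the RefSeq transcript (GRCm38.p6), 5′ to 3′ on the gene's strand, with matches in capitals. The letters searched on both strands were CANNTG, the E-box to which MYOD family factors bind, and CTANNNNTA, a loose form of the site of MEF2 factors; no match of one overlapped the other.
Myog, chr1:134289754-134290003, plus strand: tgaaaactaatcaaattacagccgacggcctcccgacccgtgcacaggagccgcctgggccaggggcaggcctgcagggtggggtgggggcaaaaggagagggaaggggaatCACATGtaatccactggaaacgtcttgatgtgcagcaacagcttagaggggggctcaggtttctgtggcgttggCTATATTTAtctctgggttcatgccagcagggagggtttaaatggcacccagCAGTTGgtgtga
Des, chr1:75360042-75360291, plus strand: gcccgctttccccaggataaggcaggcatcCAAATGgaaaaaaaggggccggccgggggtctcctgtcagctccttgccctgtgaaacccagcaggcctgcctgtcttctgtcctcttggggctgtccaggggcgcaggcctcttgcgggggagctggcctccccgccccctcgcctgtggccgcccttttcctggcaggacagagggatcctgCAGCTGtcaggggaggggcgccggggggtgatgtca
In the Myog window the E-boxes began at -138 and -12 from the RefSeq start, and the MEF2 form at -64. The gene interval given above comes from GENCODE M21 and begins at 134289989, before this window ends at 134290003. The E-box at -12 thus lies inside that interval. The Des window held E-boxes at -220 and -36 and no match of the MEF2 form. An E-box was found in 66.2% of 32851 mouse promoter windows of this length, the MEF2 form in 19.0%, and both in 13.0%. Of the other members, Pax7, Myf5, Cdh15 and Mef2c matched a window in the RefSeq table, so 6 of the 10 had one. Itga7, also called higher, had none. Members that were not called had matches too. The Cdh15 window held 3 E-boxes, and the Mef2c window at chr13:83573357-83573606 held 1 E-box and 1 MEF2 form. The Myf5 window held 2 matches of the MEF2 form and 0 E-boxes, and the Pax7 window 0 of either. The letters describe the windows and say nothing about which factor was bound in these muscles.

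In control muscle the members spanned a wide range of levels. Per length, as CPM per kilobase of exon, Des stood first in female controls at 913 ± 117 (SD, n = 4). It was followed by Myf6 at 48.1 ± 8.17 and Mef2c at 33.7 ± 6.45. Myod1 (11.2 ± 1.85), Itga7 (9.65 ± 0.831), Cdh15 (8.27 ± 1.22) and Myog (5.29 ± 0.608) came next. Pax7, Myf5 and Mymk lay at the bottom of the order, at 0.350 ± 0.0567, 0.348 ± 0.122 and 0.285 ± 0.256. The ranges of the 4 female controls overlapped between neighbours for Myf6 and Mef2c, for Myod1 and Itga7, for Itga7 and Cdh15, and among the last 3 genes. Male controls gave the same order for the first 7 genes, with Myog at 2.79 ± 0.432 CPM per kilobase. Pax7 rested on 23 to 109 counts per library, Myf5 on 3 to 38 and Mymk on 0 to 58, so these 3 genes were measured with the least precision.

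**Figure D1:**
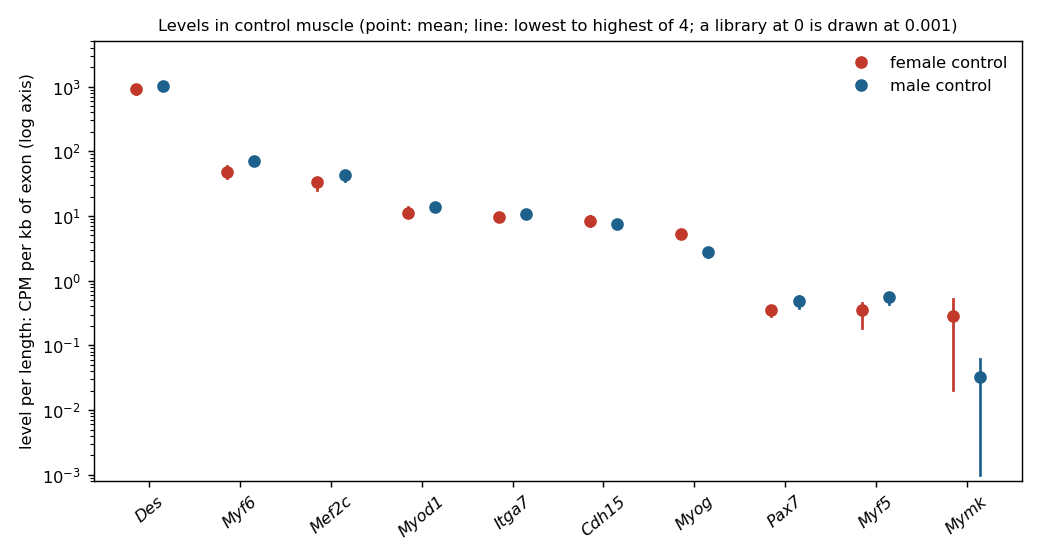
Level of the 10 genes in control muscle, as CPM per kilobase of exon on a log axis, with points for the mean of 4 libraries and lines from the lowest to the highest; a library at 0 is drawn at 0.001. Des stands highest in both sexes, Pax7, Myf5 and Mymk lowest, and Myog differs most clearly between the sexes among the well-counted genes.

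In females, sedentary pain muscle had higher RNA of myogenin, desmin and integrin alpha 7 than control muscle, while the stem cell factor Pax7 and M-cadherin did not pass the test. Of the 10 members, 3 were called higher and 0 lower, and 6 had an unadjusted p under 0.05, as 47.6% of all genes did. The whole table had 33.5% of 14511 tested genes called (19.6% higher and 13.9% lower), so the share of members called is near that of all genes. The median log2 change of the members was 0.30, against -0.02 for all genes tested. The groups did not overlap for the same 3 members, which compares with 26.3% of all genes. In bulk muscle, more or fewer cells of a type and more or less RNA per cell cannot be told apart.

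Myog had 8.97, 8.33, 7.42 and 6.94 CPM in female control replicates 1 to 4 and 11.2, 19.3, 18.9 and 33.1 CPM in female sedentary pain replicates 1 to 4. All sedentary pain libraries were above all controls, with replicate 4 far above the rest and replicate 1 nearest to the controls. The mean rose from 7.91 ± 0.909 to 20.6 ± 9.11 CPM (SD, n = 4 each), a log2 fold change of 1.36 (SE 0.26, edgeR adjusted p = 0.00413). Without replicate 4 of sedentary pain the change was 1.06 (SE 0.19, edgeR adjusted p = 0.00669), and without replicate 1 it was 1.58 (SE 0.20, edgeR adjusted p = 0.000307). Replicates 1 and 2 bear low numbers in the library names and replicates 3 and 4 high ones; what the number stands for is not given in the sources used here. Myog was 0.80 higher on the log2 scale within the low-numbered libraries, where the edgeR adjusted p was 0.188, and 1.85 higher within the others, with an edgeR adjusted p of 0.00594. The larger difference thus fell in the pair of libraries with the larger macrophage sums.

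Des encodes desmin, the intermediate filament that ties the Z-discs of neighbouring myofibrils together, and lies at chr1:75360329-75368579 (plus strand). Its level was 3964, 2889, 3410 and 3451 CPM in the female controls and 4698, 7717, 6073 and 9828 CPM in female sedentary pain, each in the order of replicates 1 to 4. The lowest sedentary pain library, replicate 1, still exceeded the highest control. Means were 3429 ± 439 and 7079 ± 2210 CPM, and the log2 fold change was 1.03 (SE 0.23, edgeR adjusted p = 0.00746). Without sedentary pain replicate 4 it was 0.85 (edgeR adjusted p = 0.0178), and without replicate 1 it was 1.20 (edgeR adjusted p = 0.00139). Within low-numbered libraries the change was 0.85 with an edgeR adjusted p of 0.207, and within high-numbered ones 1.20 with an edgeR adjusted p of 0.0261.

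Itga7 encodes integrin alpha 7, the subunit through which fibres and satellite cells hold on to laminin, and lies at chr10:128933818-128958282 (plus strand). Female controls had 85.2, 71.0, 82.3 and 73.9 CPM, and female sedentary pain libraries 123, 122, 92.7 and 100.5 CPM. Here the high libraries were replicates 1 and 2, unlike Myog and Des, and the groups did not overlap. The log2 fold change was 0.47 (SE 0.12, edgeR adjusted p = 0.0173). Itga7 stayed called without sedentary pain replicate 4 (0.53, edgeR adjusted p = 0.0198) and without sedentary pain replicate 1 (0.42, edgeR adjusted p = 0.0229). The call was lost without female control replicate 2 (0.44, edgeR adjusted p = 0.0508) and without female control replicate 4 (0.44, edgeR adjusted p = 0.0520). Neither set of libraries gave it alone: the change was 0.64 in the low-numbered ones (edgeR adjusted p = 0.142) and 0.30 in the high-numbered ones (edgeR adjusted p = 0.270).

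The remaining members of the female comparison did not pass the test, and 3 of them fell just outside it. Myf5, a determination factor made in committed satellite cells, had 0.953, 0.673, 0.390 and 0.886 CPM in controls and 0.416, 0.175, 0.519 and 0.177 CPM in sedentary pain. Control replicate 3 was the one control inside the sedentary pain range. The difference was -1.14 (SE 0.42, edgeR adjusted p = 0.0522), on 3 to 29 counts per library.

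Mef2c, a MADS-box partner of the MYOD family, had 605, 617, 402 and 496 CPM in controls and 482, 292, 349 and 234 CPM in sedentary pain. The groups overlapped through control replicate 3 and sedentary pain replicate 1. The difference was -0.66 (SE 0.24, edgeR adjusted p = 0.0521). Without sedentary pain replicate 1, Mef2c was called at -0.87 (edgeR adjusted p = 0.00978) and Myf5 at -1.26 (edgeR adjusted p = 0.0485). Without control replicate 3 both were called as well, Mef2c at -0.77 (edgeR adjusted p = 0.0406) and Myf5 at -1.35 (edgeR adjusted p = 0.0344). All genes called made up 44.9% and 30.8% in these fits. Other libraries moved the values the other way: without sedentary pain replicate 4, Mef2c was at -0.50 (edgeR adjusted p = 0.140) and Myf5 at -0.91 (edgeR adjusted p = 0.155), and without replicate 2 they were at -0.59 (edgeR adjusted p = 0.109) and -0.97 (edgeR adjusted p = 0.113).

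Myf6, the family member of mature fibres, had 73.6, 63.6, 49.3 and 56.7 CPM in controls and 96.5, 148, 79.3 and 57.2 CPM in sedentary pain. Replicate 4, the highest sedentary pain library for Myog, was the lowest for Myf6 and lay inside the control range. The difference was 0.63 (SE 0.24, edgeR adjusted p = 0.0587), and without that library Myf6 was called at 0.83 (edgeR adjusted p = 0.0200). Without replicate 2, the highest library, it was 0.34 (edgeR adjusted p = 0.171).

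Pax7, the defining factor of satellite cells, had 2.34, 2.31, 1.91 and 1.65 CPM in female controls and 1.85, 2.04, 1.65 and 0.847 CPM in female sedentary pain. The groups overlapped, and the lowest value belonged to replicate 4, the library with the highest Myog. Its log2 difference was -0.38 (SE 0.26, edgeR adjusted p = 0.264), and -0.15 without that library (edgeR adjusted p = 0.637). Cdh15, which encodes the M-cadherin that joins satellite cells to fibres, had 23.2 to 32.4 CPM in controls and 27.4 to 39.1 CPM in sedentary pain and differed by 0.21 (SE 0.15, edgeR adjusted p = 0.266), or by 0.10 without sedentary pain replicate 2 (edgeR adjusted p = 0.601). Myod1, the other determination factor, had 29.2 and 43.1 CPM in sedentary pain replicates 1 and 2 and 19.4 and 18.9 CPM in replicates 3 and 4, against 17.7 to 25.8 CPM in controls. The first pair lay above the control range and the second inside it, and over all 4 the difference was 0.39 (SE 0.25, edgeR adjusted p = 0.230). Without replicate 2 it was 0.10 (edgeR adjusted p = 0.718). Mymk, which encodes myomaker, the membrane protein that drives myoblast fusion, lay between 0.0306 and 0.780 CPM in controls and between 0.265 and 0.953 CPM in sedentary pain. At 1 to 27 counts per library in these groups, no difference was detectable (0.14, SE 1.12, edgeR adjusted p = 0.929).

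**Figure D2:**
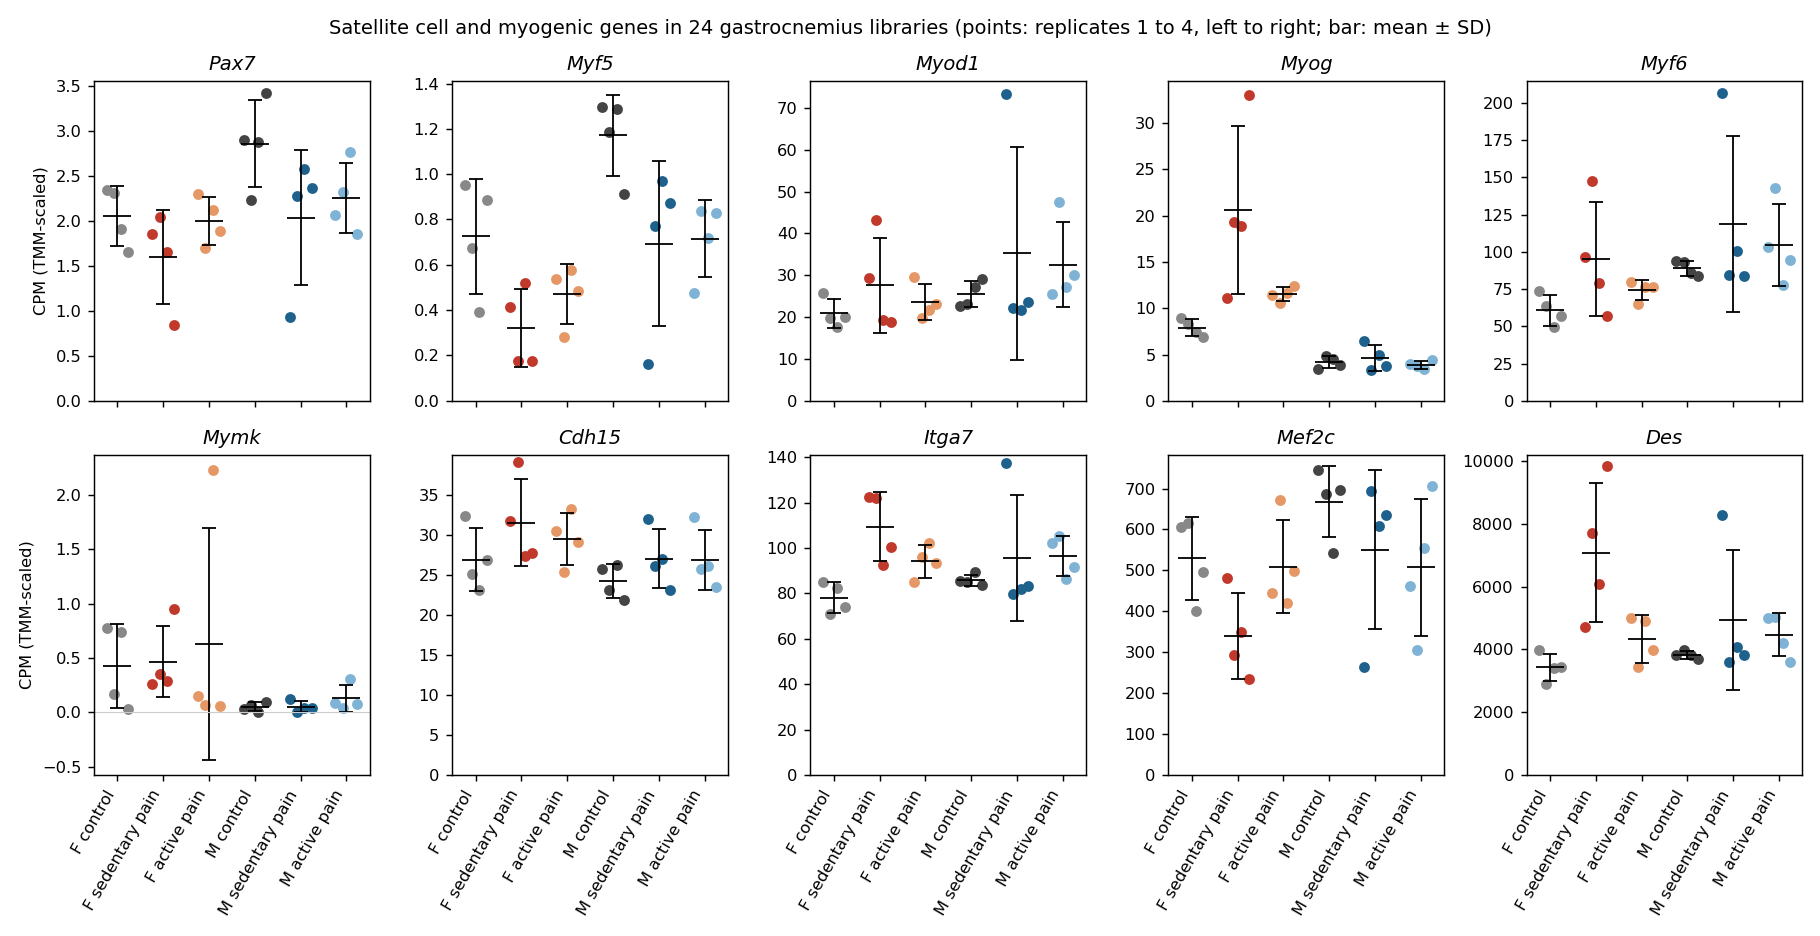
CPM of each gene in all 24 libraries, with points for replicates 1 to 4 from left to right in each of the 6 groups and bars for the mean ± SD (F, female; M, male). Myog in female sedentary pain reaches 33.1 CPM against 6.94 to 8.97 CPM in female controls, and male sedentary pain replicate 1 stands apart for Myod1, Myf6, Itga7 and Des.

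The balance between the early and late factors changed from library to library in this group. Myog counts per Myod1 count were 0.345 to 0.419 in female controls, 0.382 to 1.75 in female sedentary pain and 0.386 to 0.538 in female active pain. They were 0.132 to 0.211 in male controls, 0.0882 to 0.227 in male sedentary pain and 0.0792 to 0.157 in male active pain. No male library reached the lowest female ratio. These ratios were not tested.

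Markers of other cell types moved with the female comparison. All 8 macrophage markers were called higher in sedentary pain, and their sum went from 83.0 to 181 CPM in controls to 394 to 4552 CPM. The neutrophil list had 5 of 6 called higher, with sums of 0.898 to 3.70 CPM in controls and 21.4 to 254 CPM in sedentary pain. Adipocyte markers had 4 of 5 called lower, from 244 to 1099 CPM down to 78.0 to 236 CPM. Lymphocyte sums were 0.505 to 1.62 CPM in controls and 1.78 to 43.8 CPM in sedentary pain, with both tested genes of 6 called higher. Endothelial sums were 188 to 211 CPM in controls and 148 to 174 CPM in sedentary pain, with 2 of 6 called lower, and smooth muscle markers had 2 of 6 called lower. Schwann cell markers had 0 of 6 called, and of 6 fibro-adipogenic markers Col1a1 alone was called, higher. Of these lists no marker was at 0 in every library of a group. Fast-fibre markers had 0 of 8 called, with sums of 144387 to 214695 CPM in controls and 101079 to 198272 CPM in sedentary pain, and slow-fibre markers had 0 of 6 called, with sums of 264 to 1115 and 85.1 to 263 CPM. The part of these cell types in the changes of Myog, Des and Itga7 was not tested. Nor was it tested for the pathway genes below, such as Cdkn1a, Myof, Vim, Itgb1 and Notch2.

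**Figure D3:**
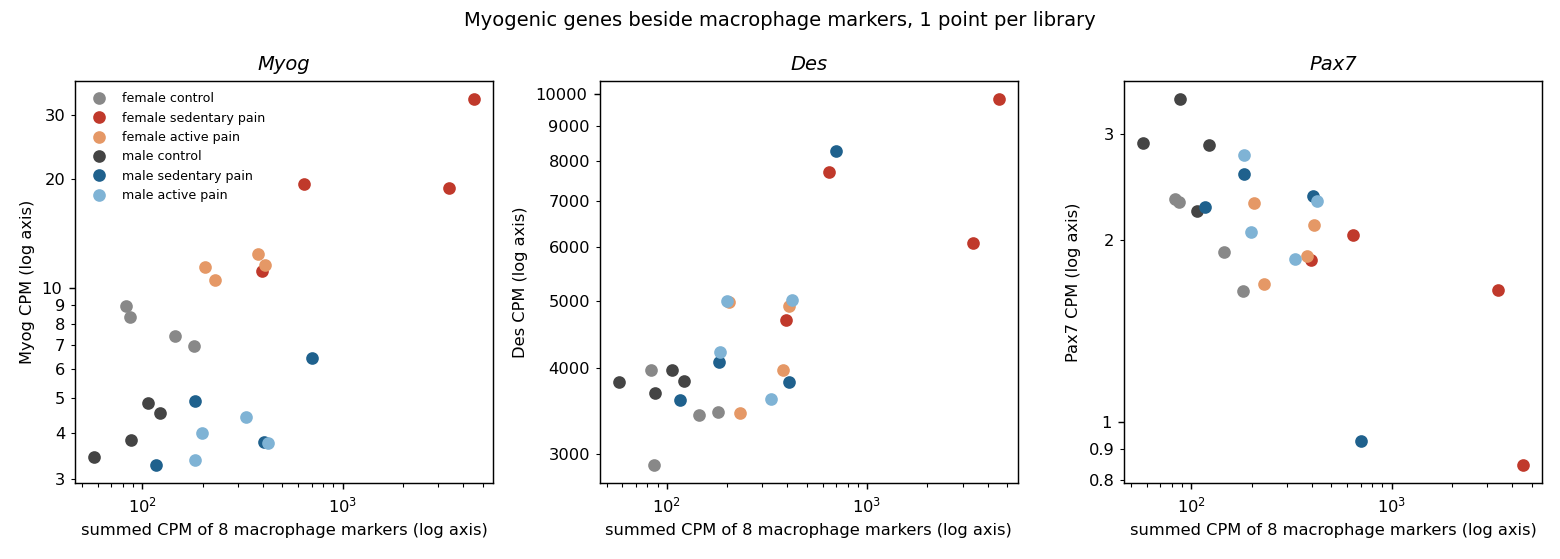
Myog, Des and Pax7 in CPM against the summed CPM of 8 macrophage markers, 1 point per library coloured by group, with log scales on both axes. The female sedentary pain library with the highest macrophage sum, 4552 CPM, has the highest Myog and Des and the lowest Pax7. Among male libraries, the one with the highest macrophage sum, 703 CPM, has the highest Myog, 6.46 CPM.

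Lists of other genes of the same pathways place the members among their neighbours in the female comparison of sedentary pain with control. The lists were chosen with earlier results of these data known, so they serve as a description. Their counts stand against 33.5% of all genes called (19.6% higher, 13.9% lower) and a median log2 change of -0.02 over all genes; the MEF2 (2 of 7) and Notch and myostatin (3 of 10) lists had shares near that of all genes. Among 10 tested activation and proliferation genes, 6 were called higher and 0 lower (list median 2.00), including Ccna2 at 4.04 (SE 0.57) and Mki67 at 3.86 (SE 0.69), markers of dividing cells of any type. The cyclin D gene Ccnd1, which acts at entry into the cycle, rose by 1.54 (SE 0.24). All 3 are shared with dividing immune cells, whose markers moved in the same libraries. Within the low-numbered libraries 1 of the 10 was called, where calls over all genes also dropped, to 1.67%.

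The commitment, cell cycle exit and fusion list had 2 called higher and 9 lower of 17 tested (list median -0.61). Cdkn1a, the p21 inhibitor that myoblasts use to leave the cycle, rose by 1.80 (SE 0.47), and Myof, the membrane repair protein myoferlin, by 2.14 (SE 0.50). Cdkn1c, another inhibitor of the same family, changed by -0.83 (SE 0.16), and Tmem182, a brake on fusion, by -0.71 (SE 0.18). With scaling by total counts alone, which moved the median of all genes from -0.02 to 0.17, 2 lower calls were made in this list, and leaving out sedentary pain replicate 4 also gave 2, with 31.6% and 16.9% of all genes called.

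Quiescent satellite cell genes were split, with 4 called higher and 3 lower of 13 (list median -0.21). Spry1, a feedback inhibitor that holds satellite cells at rest, changed by -0.73 (SE 0.18), whereas the syndecan genes Sdc3 and Sdc4 rose by 3.11 (SE 0.49) and 1.56 (SE 0.39) and the adhesion gene Vcam1 by 1.27 (SE 0.35). Syndecans and VCAM1 are also made by immune and endothelial cells, whose marker sums were higher and lower in these libraries, respectively. Partners of desmin had 5 called higher and 1 lower of 9 (list median 0.96): Cryab, the small heat shock protein that binds desmin, went from 511 ± 101 to 1673 ± 450 CPM (1.69, SE 0.22), Nes, the nestin of regenerating fibres, rose by 0.96 (SE 0.19), and vimentin (Vim) by 1.97 (SE 0.36). Higher calls in this list numbered 5 under total counts and without sedentary pain replicate 4 as well, where the single lower call was not made.

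Of the laminin-integrin genes, 2 were called higher and 4 lower of 13 (list median -0.35). Itgb1, the beta 1 chain with which integrin alpha 7 pairs, rose from 160 ± 7.88 to 229 ± 23.8 CPM (0.50, SE 0.12), close to the change of Itga7 itself. Macrophage markers rose in the same comparison, and which cells carried the rise of Itgb1 was not tested. Dag1, the dystroglycan gene, changed by -0.81 (SE 0.27), a call not made under total counts, where the list had 2 higher and 0 lower. Embryonic and regenerating fibre genes had 1 called of 9 (list median 0.24), Ankrd1, a stretch-induced titin partner, at 7.43 ± 2.099 and 191 ± 72.5 CPM (4.66, SE 0.61). The MEF2 list had Hdac5 and Mef2a called lower of 7 (list median -0.32), at -0.63 (SE 0.19) and -0.88 (SE 0.31), and total counts made neither call. Among Notch and myostatin genes, Rbpj, the nuclear effector of Notch, rose by 0.78 (SE 0.15), Notch2 rose by 1.38 (SE 0.38), and Mstn, the myostatin that restrains muscle growth, changed by -1.39 (SE 0.47), of 10 tested (list median -0.30). The call of Mstn was not made under total counts.

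Active pain in females was compared with the same controls. No member was called, none had an unadjusted p under 0.05, and DESeq2 called none. Of all 14511 genes 0 were called by edgeR, 1020 (7.03%) had an unadjusted p under 0.05 and DESeq2 called 124. Myog had 11.5, 10.6, 11.6 and 12.4 CPM in active pain replicates 1 to 4. These 4 values lay close together and above all controls, while 5.44% of all genes had groups without overlap. The log2 difference was 0.54 (SE 0.25, edgeR adjusted p = 0.716). Itga7 had 85.0, 95.9, 102 and 93.4 CPM in active pain and differed from control by 0.27 (SE 0.12, edgeR adjusted p = 0.713). Des had 4985, 3442, 4916 and 3967 CPM and differed by 0.33 (SE 0.22, edgeR adjusted p = 0.837). For both, 3 of the 4 active pain libraries exceeded the highest control. Pax7 and Mef2c differed by -0.04 (SE 0.26) and -0.06 (SE 0.24), so that their means in active pain lay next to those of controls. Myf5 had 0.539, 0.282, 0.577 and 0.486 CPM in active pain, inside or below the control range, and differed by -0.63 (SE 0.40, edgeR adjusted p = 0.837). The remaining members had wide errors beside their differences: 0.17 for Myod1 (SE 0.25), 0.29 for Myf6 (SE 0.24), 0.13 for Cdh15 (SE 0.15) and 0.56 for Mymk (SE 1.10).

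Set against sedentary pain, active pain in females had lower means of Myog and Des and a higher mean of Mef2c, none of them past the threshold. No member was called, against 11.9% of all genes; 3 had an unadjusted p under 0.05, against 32.2% of all genes, and DESeq2 called 2, Myog (-0.84, DESeq2 adjusted p = 0.0200) and Des (-0.71, DESeq2 adjusted p = 0.0178), beside 20.7% of all genes. Myog differed by -0.82 (SE 0.25, edgeR adjusted p = 0.0537) and Des by -0.69 (SE 0.22, edgeR adjusted p = 0.0617). Mef2c differed by 0.60 (SE 0.24, edgeR adjusted p = 0.109). The other members had edgeR adjusted p of 0.278 or more, with differences of 0.34 for Pax7, 0.51 for Myf5, -0.21 for Myod1, -0.33 for Myf6, 0.42 for Mymk, -0.08 for Cdh15 and -0.20 for Itga7. Several of these moved with single libraries. Without sedentary pain replicate 2, Myod1 was at 0.06, Cdh15 at 0.02 and Myf6 at -0.07. Without sedentary pain replicate 4, Pax7 was at 0.11, Myf5 at 0.28 and Mymk at 1.05. Sedentary pain replicate 1, with 11.2 CPM of Myog, lay inside the active pain range, and the groups overlapped for all 10 members, whereas 11.8% of all genes had groups without overlap. Leaving out that library alone turned Myog (-1.06, edgeR adjusted p = 0.00374), Des (-0.88, edgeR adjusted p = 0.0107) and Mef2c (0.79, edgeR adjusted p = 0.0220) into calls, in a fit that called 29.0% of all genes. Leaving out sedentary pain replicate 4 instead gave smaller differences, -0.52 for Myog (edgeR adjusted p = 0.151), -0.51 for Des (edgeR adjusted p = 0.173) and 0.44 for Mef2c (edgeR adjusted p = 0.293). Within the low-numbered libraries Myog differed by -0.48 (edgeR adjusted p = 0.523), and within the high-numbered ones by -1.11 (edgeR adjusted p = 0.0461).

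Some pathway genes passed in this comparison. Ankrd1 changed by -3.49 (SE 0.57), Cryab by -1.15 (SE 0.22), Nes by -0.90 (SE 0.19), Ccnd1 by -1.24 (SE 0.24) and Cdkn1a by -1.80 (SE 0.47), while Cdkn1c rose by 0.59 (SE 0.16). Desmin partners had 4 of 9 called lower and activation genes 5 of 10, alongside 6 of 8 macrophage markers and against 11.9% of all genes called in either direction. Without sedentary pain replicate 4, or without active pain replicate 1, 2 or 4, edgeR called 0 genes of the whole table, and without sedentary pain replicate 3 it called 3, so these counts rest on single libraries. This comparison and the first share the sedentary pain libraries, so their values are given side by side without a test of their likeness.

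**Figure D4:**
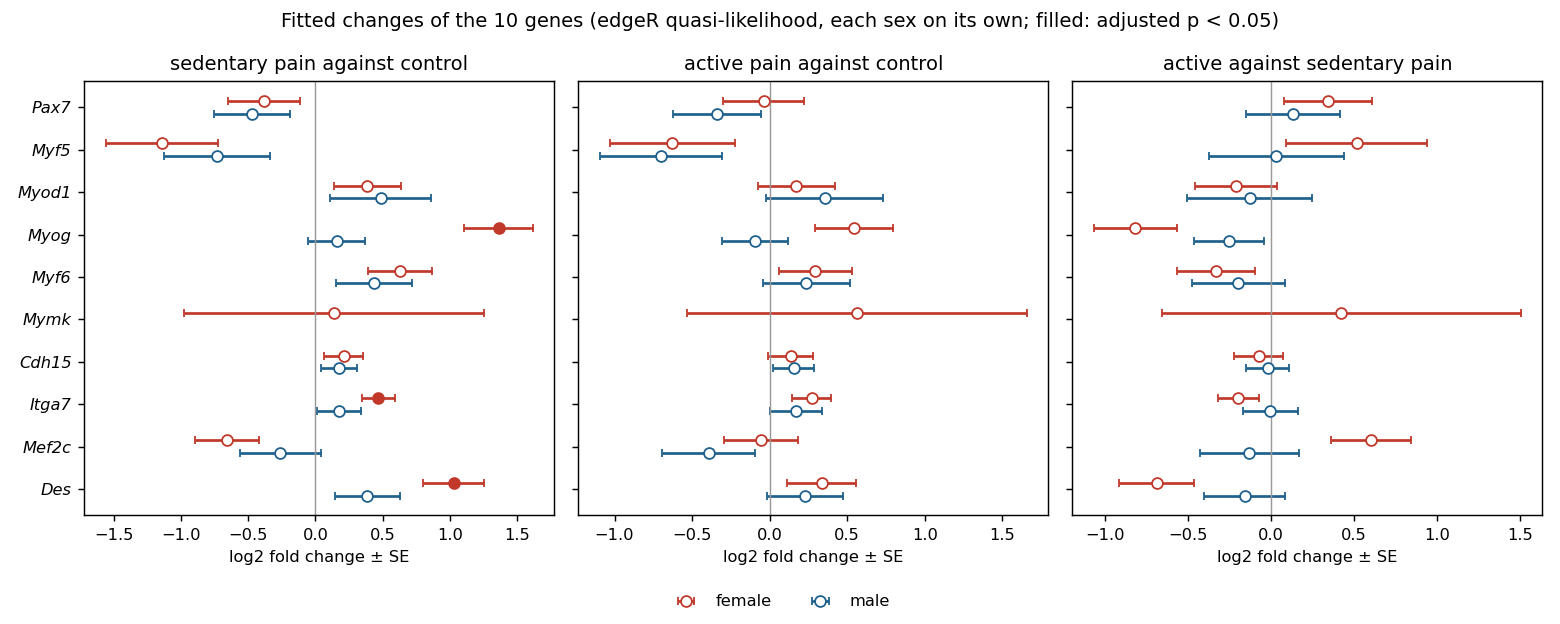
Fitted log2 fold changes ± SE of the 10 genes in females and males for sedentary pain against control, active pain against control and active against sedentary pain; filled points have an adjusted p under 0.05, and Mymk was not tested in males. The filled points are Myog (1.36), Des (1.03) and Itga7 (0.47) in female sedentary pain against control.

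In males the level of myogenin stayed between 3.28 and 6.46 CPM in all 12 libraries. Controls had 3.44, 4.86, 4.54 and 3.84 CPM, sedentary pain 6.46, 3.28, 4.90 and 3.78 CPM, and active pain 4.003, 3.76, 3.38 and 4.43 CPM. The 3 male groups overlapped, and the highest value was that of sedentary pain replicate 1. Sedentary pain differed from control by 0.16 (SE 0.21, edgeR adjusted p = 0.700) and active pain by -0.10 (SE 0.21, edgeR adjusted p = 0.814). Without sedentary pain replicate 1 the first of these was -0.05 (SE 0.18), so its direction turned with that library. No member was called in any of the 3 male comparisons, none had an unadjusted p under 0.05, and DESeq2 called none; Mymk, at 0 to 9 counts per library, was not tested. Over all 14404 genes, 0 were called by edgeR in each, with unadjusted p under 0.05 for 1273 (8.84%), 1045 (7.25%) and 121 (0.840%) genes in sedentary pain against control, active pain against control and active against sedentary pain, and DESeq2 called 270, 127 and 0.

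Male sedentary pain replicate 1 had a large part in the differences of that group. Myod1 stood at 73.2 CPM there, against 21.6 to 23.7 CPM in the other 3 libraries and 22.6 to 29.0 CPM in controls. Des was at 8266 CPM against 3591 to 4072 CPM, Myf6 at 207 against 83.8 to 100.3 CPM, and Itga7 at 137 against 79.9 to 83.4 CPM. In the other direction, this library had the lowest Pax7 of the male libraries, 0.928 CPM, and the lowest Myf5 and Mef2c, 0.161 and 264 CPM. Male control Pax7 was 2.24 to 3.43 CPM. With all 4 libraries the log2 differences from control were 0.49 for Myod1, 0.44 for Myf6, 0.39 for Des and 0.17 for Itga7. Without replicate 1 they were -0.16, 0.03, 0.02 and -0.05. Those of Pax7, Myf5, Mef2c and Cdh15 were -0.47, -0.73, -0.26 and 0.17 with it and -0.24, -0.41, -0.03 and 0.08 without it, so Pax7 and Myf5 stayed on the lower side, and the smallest edgeR adjusted p of the tested members was 0.999905. Its mitochondrial share, macrophage sum of 703 CPM and neutrophil sum of 300 CPM (2.28 to 2.69 CPM in the others) moved with these values, and their part in them was not tested.

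Male active pain replicate 2 also stood apart for some members, with Myod1 at 47.5 CPM, Myf6 at 143 CPM and Mef2c at 306 CPM. Its 3 companions had 25.6 to 30.0 CPM of Myod1, 78.0 to 103 CPM of Myf6 and 462 to 707 CPM of Mef2c. Its Pax7 (2.32 CPM) lay inside the range of its group, its Myf5 (0.840 CPM) was the highest of the group by a narrow margin, and its Des (5027 CPM) was close to that of replicate 1 (5003 CPM). Myf5 was the only member whose male active pain and control groups did not overlap. It had 1.30, 1.19, 1.29 and 0.912 CPM in controls and 0.474, 0.840, 0.718 and 0.831 CPM in active pain, a difference of -0.70 (SE 0.40, edgeR adjusted p = 0.634). The share of all genes lower without overlap was 4.06%. At 11 to 38 counts per library the spread of Myf5 is wide, and the gene is a neighbour of Myf6, 6718 bases away on chromosome 10.

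Whether the sexes differed in the change itself was tested as an interaction over all 24 libraries. No member was called for any of the 3 contrasts, and none of 15103 genes was; 1446 (9.57%), 307 (2.03%) and 2224 (14.7%) genes had an unadjusted p under 0.05 for sedentary pain against control, active pain against control and active against sedentary pain, and DESeq2 called 15, 3 and 111, none of them members. Myog was the single member with an unadjusted p under 0.05. Its change in sedentary pain was smaller in males, with an interaction of -1.24 on the log2 scale (male minus female change, SE 0.34, edgeR adjusted p = 0.432). Leaving out male sedentary pain replicate 1 gave -1.45 for Myog, -1.04 for Des in place of -0.68, and -0.56 for Itga7 in place of -0.33 (edgeR adjusted p = 0.0674 for each). Leaving out male active pain replicate 2 as well, a choice made after seeing the data, gave -1.39 for Myog (edgeR adjusted p = 0.0415) and -0.99 for Des (edgeR adjusted p = 0.0466). Of 15332 genes tested in that fit, 591 (3.85%) were called. Female libraries moved the Myog interaction as well. It was -0.86 without female sedentary pain replicate 4 (edgeR adjusted p = 0.999972) and -1.44 without female sedentary pain replicate 1 (edgeR adjusted p = 0.0524).

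For active against sedentary pain, leaving out male sedentary pain replicate 1 led to 2 called members, Des at 0.93 (edgeR adjusted p = 0.0309) and Itga7 at 0.45 (edgeR adjusted p = 0.0459), in a fit that called 14.1% of all genes. With all libraries these interactions were 0.56 (SE 0.34) and 0.23 (SE 0.20), at edgeR adjusted p = 0.429 and 0.588. With male active pain replicate 2 left out too, edgeR called 0 genes.

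Control muscle itself differed between the sexes in 1 member. Myog averaged 4.17 ± 0.646 CPM in male and 7.91 ± 0.909 CPM in female controls (SD, n = 4 each), a log2 difference of -0.92 (SE 0.24, edgeR adjusted p = 0.0400), and the groups did not overlap. It was the single member called of 10, and Mymk was the other member with an unadjusted p under 0.05. Of 15103 genes 2.83% were called, 1.28% lower in males, and 14.9% had an unadjusted p under 0.05. The call depended on the control libraries. It was made in 13 of the 24 fits that left out 1 library, and in none of the 8 that left out a control library. The log2 differences lay between -1.002 and -0.84 over all 24 fits. The call was not made with scaling by total counts alone (-0.996, edgeR adjusted p = 0.0507) or with no filter on low counts (-0.91, edgeR adjusted p = 0.0559). Nor was it made with the replicate number as a block (-0.92, edgeR adjusted p = 0.0705), while DESeq2 made it (-0.93, DESeq2 adjusted p = 0.00958). Across the whole study the lowest female Myog value, 6.94 CPM, exceeded the highest male one, 6.46 CPM. Genes with all 12 female libraries above all 12 male ones made up 0.199% of those tested. This split joins controls with both pain groups and is given as a description.

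The other members did not pass between control groups. Myf6 was higher in all 4 male controls (84.0 to 93.7 CPM) than in all 4 female ones (49.3 to 73.6 CPM), at 0.55 (SE 0.27, edgeR adjusted p = 0.353), and 22.3% of all genes had control groups without overlap. Pax7 averaged 2.86 ± 0.487 CPM in male and 2.05 ± 0.332 CPM in female controls, a difference of 0.48 (SE 0.27, edgeR adjusted p = 0.414). Myf5 differed by 0.68 (SE 0.40, edgeR adjusted p = 0.429) and Mymk by -2.96 (SE 1.20, edgeR adjusted p = 0.241), the latter on at most 3 counts per male control. Of the pathway lists only Actc1, the cardiac actin of embryonic and regenerating fibres, was called, with 592 ± 268 CPM in female and 124 ± 31.0 CPM in male controls (-2.26, SE 0.48, edgeR adjusted p = 0.0106). Slow-fibre sums also ranged lower in male controls, 23.0 to 373 CPM against 264 to 1115 CPM, with 0 of 6 genes called, and their part in the Myog difference was not tested.

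For the 3 members called in females, the genes with the most similar pattern over the 6 group means of log2 CPM were listed, as the smallest root mean square difference after centring among 14044 genes. For Myog these were Srrm4os (0.0924), Gm47283 (0.194) and Tpm3 (0.233). Srrm4os is an antisense gene whose reads may belong to its partner, since the use of strand in counting is not given in the sources used here, and Gm47283 may share reads with near-identical copies. Tpm3 encodes a slow-fibre tropomyosin. For Des they were Tubb4b (0.0368), Rps6ka4 (0.0436) and Plekha2 (0.0503), and for Itga7 they were Fbxo6 (0.0171), Ssu72 (0.0333) and Arpp19 (0.0346). The smaller values of Itga7 go with its smaller range over the groups, 0.48 on the log2 scale against 2.28 for Myog and 1.001 for Des.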

How the data were processed

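Per the labels' protocols, RNA was taken with a kit for fibrous tissue, cleaned, and 0.5 µg per sample went into Illumina TruSeq stranded libraries read as 100-base paired ends on a NovaSeq. The deposited files hold whole-number read counts per Ensembl gene, with no normalization by the authors found in them. The submitters' processing notes name HISAT2 2.1.0, Salmon 0.9.1, featureCounts, DESeq2 1.24.0 and the builds mm10 and GRCm38.p6, without saying which made the counts. The use of strand in counting is not given in the sources used here.

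The members and gene lists were chosen with earlier results of these data known. Groups came from the labels. Counts were fitted in edgeR 4.0.16 (R 4.3.3) with TMM scaling, a low-count filter (filterByExpr, minimum 10) and robust quasi-likelihood tests, two-sided. Each sex was fitted on its own 12 samples, following the series' design text, and interactions and control levels between the sexes on all 24. Benjamini-Hochberg adjustment covered all genes tested. CPM used TMM factors over 24 samples; CPM per kilobase used GENCODE M21 exon unions (GRCm38). The rule for named genes covered all 10 members; in male comparisons, interactions and control levels, some members are given by counts only. Of each pathway list, up to 4 called genes with the smallest p were eligible for naming. The fits were tested on simulated data.

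Alternatives covered other scaling factors, total counts only, DESeq2 1.42.0, filters, mitochondrial genes left out, the replicate number or library number as a term, fewer or more samples in the fit, and each library left out.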

Additional observations from a re-analysis of the deposited data

Results flagged for a closer look

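In each of 60 sets of 4 libraries (10 genes in 6 groups) the gap of the highest and lowest library to its neighbour was compared with the whole range, using Dixon's 95% critical value for 4 values. For normally spread values chance alone gives about 1 in 20 such sets, and 6 were found. The sets share libraries and are not independent, so the number found is no test against chance.

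Male sedentary pain replicate 1 was the high library in 4 of them. Its Myod1 was 73.2 CPM with the next library at 23.7 CPM, its Myf6 207 CPM with the next at 100.3 CPM, its Itga7 137 CPM with the next at 83.4 CPM, and its Des 8266 CPM with the next at 4072 CPM.

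Mymk gave the other 2, both in females. One sedentary pain library, replicate 4, was at 0.953 CPM with the next at 0.350 CPM, and one active pain library, replicate 3, was at 2.23 CPM with the next at 0.147 CPM. Without that active pain library the log2 difference of Mymk between female active pain and control was -2.22 in place of 0.56, with no call either way. These values rest on 27 and 58 counts.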

How the results depend on the processing

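In female sedentary pain against control, 3 members were called. DESeq2 called 6 (adding Myf5, Myf6 and Mef2c, with 5773 or 39.8% of all genes), total counts alone 6 (adding Myod1, Myf6 and Cdh15, with 31.6%), leaving out mitochondrial genes or adding the library number as a term called 5, replicates 1 and 2 alone called 0, and fits without 1 library called 2 to 5. Myog and Des were each called under 24 of 25 alternatives, missing with replicates 1 and 2 alone, and Itga7 under 20. In female active against sedentary pain, where 0 were called, total counts called 3, DESeq2, the library number and all 24 samples in 1 fit called 2 each, replicates 3 and 4 alone called 1, and fits without 1 library 0 to 3. For male against female control the 1 call (Myog) became 0 under total counts, with no filter on low counts and with the replicate block, and 0 to 1 without 1 library. Interactions gave 2 called members for sedentary pain against control without the 2 male libraries that stood apart, and 0 to 2 without 1 library for active against sedentary pain. No called value changed sign. The other comparisons kept 0 called members under every alternative run.

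Residuals of same-numbered samples had a mean correlation of 0.103 in females, from -0.305 to 0.394, with 6 of 12 pairs over 0.1. In males the mean was 0.00654, from -0.652 to 0.574, with 3 of 12 pairs over 0.1. The labels do not say that the numbers pair samples, and they were not taken to do so. With the replicate number as a block, female sedentary pain against control kept 3 called members and Myog in control muscle had an edgeR adjusted p of 0.0705 at -0.92. The block gave 3739, 1629 and 337 called genes in place of 4867, 1730 and 427 in the 3 comparisons with calls, and changed no other call of a member.

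Counts of called genes over the table also moved. In female active against sedentary pain, DESeq2 called 3010, the library number 2745 and the 8 samples alone 0, and single left-out libraries gave 0 to 4316. In female sedentary pain against control the 8 samples alone called 2847, and replicates 1 and 2 alone 238. DESeq2 called 720 genes between controls. Total counts alone moved the median log2 change to 0.17 and -0.19 in these female comparisons and turned 2847 higher of 4867 calls into 3795 of 4579. Depth limits Pax7, Myf5 and Mymk most.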
